A study of Drosophila melanogaster with 2 samples.

Results

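The genes described here are 10 heat shock and cognate chaperone genes of Drosophila melanogaster, taken by name from the 13968 protein-coding genes of the annotation. Hsc70-4, Hsc70-3, Hsc70-5, Hsp83 and Hsp60A are made without heat and are called constitutive here. Hsp27, Hsp26, Hsp23, Hsp22 and Hsp68 are called inducible. Expression was not measured, so these are class names and do not say which genes were active in these embryos. Every summit inside a gene or within 2 kb of it was taken, and all 10 genes lie on the chromosome arms, away from the pericentromeric DNA.

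Binding of Su(var)2-HP2, a partner of the heterochromatin protein HP1, was mapped by chromatin immunoprecipitation and sequencing with an antibody against GFP. Both samples were whole embryos collected over 0 to 10 h from 1 transgenic line with GFP fused to the C terminus of Su(var)2-HP2, and the labels number them as biological replicates 4 and 6. The labels name no heat treatment and no second group, so the comparisons are between genes and between the 2 replicates. Whole embryos mix many cell types and ages, so a weak summit in all cells and a strong one in a few cannot be told apart.

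The data are 4 lists of summits. Each replicate has a list of 30000 summits, and so does the pool of both. The list with a threshold on reproducibility between replicates (irreproducible discovery rate, IDR) holds 2006 summits, which are the 2006 pooled summits with the highest signal score. The score is the authors' own, on a scale the sources used here do not state. It ran from 120.9 to 5544 in the IDR list, with a median of 203.7. To set the replicates side by side, each score is given as a multiple of the median among the top 2006 summits of its own list, called relative signal. Sequencing depth is unknown, because no read counts come with the lists.

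Heat shock proteins keep other proteins from clumping and help them fold. Members of the Hsp70 and Hsp90 families work with ATP in the cytosol, endoplasmic reticulum and mitochondria, chaperonins of the Hsp60 family fold proteins inside a chamber, and small heat shock proteins hold unfolded clients without ATP. On heat, heat shock factor binds heat shock elements, which are runs of NGAAN and NTTCN units in alternation, and several fly heat shock promoters carry GAGA elements that keep them open beforehand.

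The sequences under the strongest IDR summits that both replicates held are shown first, read from Release 6 of the genome (dm6) on the plus strand, 5′ to 3′. Capitals mark the 21 bases centred on the pooled summit. The first is the window of 100 bases on each side of the summit in front of Hsc70-4, at 3R:15242419-15242619, and the other two are the whole called intervals in front of Hsp27, at 3L:9383791-9384038, and in the intron of Hsp83, at 3L:3194171-3194346.
Hsc70-4 peak: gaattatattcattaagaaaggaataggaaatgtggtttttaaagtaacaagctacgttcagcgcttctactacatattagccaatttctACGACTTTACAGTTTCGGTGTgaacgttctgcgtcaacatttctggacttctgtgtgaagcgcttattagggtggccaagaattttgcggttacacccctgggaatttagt
Hsp27 peak: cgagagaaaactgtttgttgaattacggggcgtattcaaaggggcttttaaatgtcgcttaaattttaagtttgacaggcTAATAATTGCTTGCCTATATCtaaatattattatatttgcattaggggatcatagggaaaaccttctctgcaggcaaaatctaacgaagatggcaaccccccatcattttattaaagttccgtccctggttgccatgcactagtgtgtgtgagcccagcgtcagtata
Hsp83 intron peak: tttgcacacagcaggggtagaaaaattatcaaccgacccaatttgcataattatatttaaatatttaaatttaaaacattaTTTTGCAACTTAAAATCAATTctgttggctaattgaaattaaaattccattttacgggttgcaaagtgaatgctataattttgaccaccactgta

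The next sequences are shown because they hold the elements that textbooks place at heat shock genes. The Hsp83 site at 3L:3193137-3193166, on the plus strand, lies under the first Hsp83 interval and ends 50 bp before the gene's second start site. Its capitals mark the cores of adjoining heat shock units, each core counted whether or not all its letters match. The upstream sequence of Hsp26 at 3L:9377428-9377677, on the minus strand, has GAGAG or its complement CTCTC in capitals. The upstream sequence of Hsp68 at 3R:24057311-24057560, on the minus strand, has the cores of its heat shock element in capitals.
Hsp83 site: aGAAgcCTCtaGAAgtTTCtaGAGacTTCc
Hsp26 upstream: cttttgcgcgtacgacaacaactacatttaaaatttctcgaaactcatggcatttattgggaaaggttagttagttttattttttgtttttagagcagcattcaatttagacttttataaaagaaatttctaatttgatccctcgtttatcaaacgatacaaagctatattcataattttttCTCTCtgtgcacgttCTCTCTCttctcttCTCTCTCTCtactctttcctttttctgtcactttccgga
Hsp68 upstream: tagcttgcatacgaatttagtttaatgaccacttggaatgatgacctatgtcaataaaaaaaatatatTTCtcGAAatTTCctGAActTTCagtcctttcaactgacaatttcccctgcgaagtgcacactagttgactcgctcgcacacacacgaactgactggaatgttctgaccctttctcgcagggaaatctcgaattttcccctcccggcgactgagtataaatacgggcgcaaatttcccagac

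Of the 10 genes, 5 had an IDR summit: Hsc70-4, Hsc70-5, Hsp83, Hsp27 and Hsp23. Among all protein-coding genes the share counted in the same way was 15.4%, and it was 14.5% for genes on the arms and 13.7% for genes within the members' range of lengths, 884 to 5422 bp. By class these were 3 of 5 constitutive and 2 of 5 inducible genes. The inducible pair, Hsp27 and Hsp23, shared a single summit that lies in front of Hsp27, so 1 inducible promoter stands behind that count. With the IDR summit required to lie within 500 bp of a start site, 4 of 10 genes remained, 3 constitutive and 1 inducible, beside 8.84% of protein-coding genes. With each summit given only to the gene with the nearest start site, an alternative chosen after seeing the data, the count was 3, beside 8.15% of protein-coding genes. With summits inside the gene body only it was 1, beside 4.62%.

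Weaker summits were found at nearly all of the genes. In the pooled list 9 of 10 had a summit, beside 52.3% of protein-coding genes, and the exception was Hsp68. Counting pooled summits with a q-value under 0.05, it was again 9 of 10, beside 40% of protein-coding genes. All 10 had a summit somewhere in their window in both replicate lists, beside 48.6%. With a q-value under 0.05 required in each replicate list it was 7 of 10. Within 500 bp of a start site it was also 7. The share of all genes was not counted under these 2 rules, so nothing is read from these 2 counts. Among the 2006 strongest summits of replicate 4 there was one at 4 of the 10 genes, beside 14.9%, and among those of replicate 6 at 5 of the 10, also beside 14.9%. No test was made of these shares, since the genes were chosen with earlier results of the same data known.

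**Figure D1:**
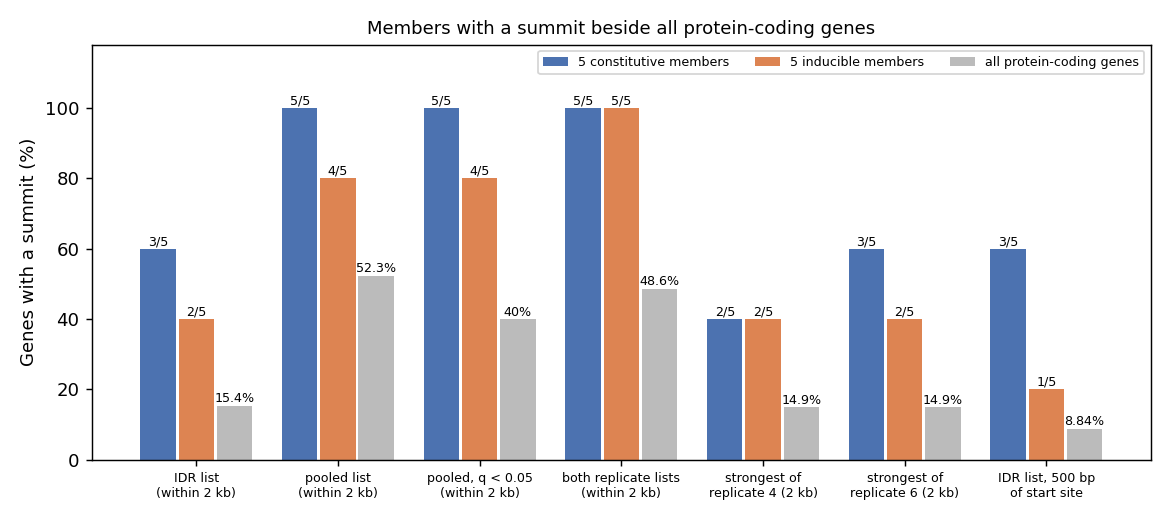
Share of genes (%, vertical axis from 0) with a summit under each counting rule, for the 5 constitutive genes, the 5 inducible genes and all 13968 protein-coding genes; the numbers over the coloured bars are genes of 5. Constitutive and inducible bars differ by 1 gene or none under every rule shown except the 500 bp start-site rule, where 3 constitutive genes and 1 inducible gene had a summit.

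The 10 windows held 17 distinct pooled summits, of which 5 were in the IDR list and 13 had a q-value under 0.05. A summit was called matched when a replicate's own list had one within 100 bp. Both replicates matched 6 of the 17, a single replicate matched 9, and neither matched 2. Among the 5 IDR summits 4 were matched in both. Over the whole IDR list 1893 of 2006 were matched in both replicates, and the ratio of relative signal in replicate 6 to replicate 4 had a median of 1.04, with quartiles of 0.805 and 1.29.

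**Figure D2:**
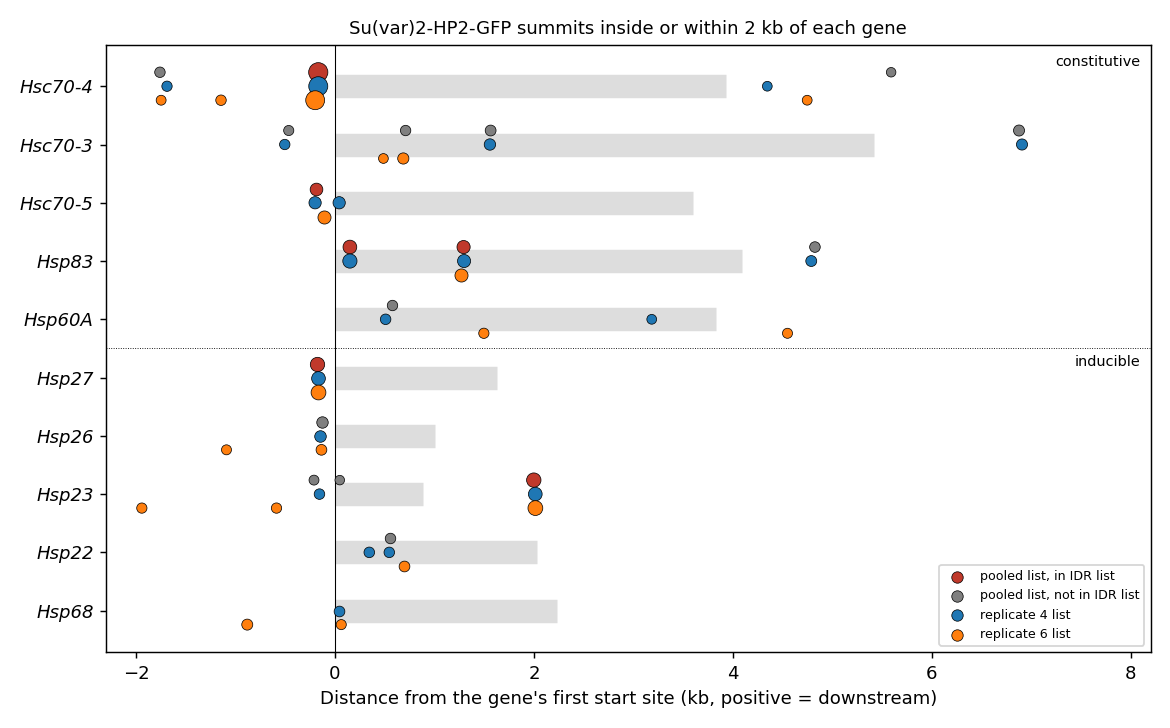
Every summit inside or within 2 kb of each gene, by distance from the gene's first start site (kb, positive downstream); grey bars are the genes, and larger points have higher relative signal. Red points, the IDR summits, lie just upstream of the start of Hsc70-4, Hsc70-5 and Hsp27 and inside Hsp83, and the Hsp27 summit appears again downstream of Hsp23.

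Hsc70-4 (FBgn0266599, 3R, 15242687 to 15246614, plus strand) had the strongest summit of the 10 genes. It encodes the main cytosolic Hsp70 cognate, which among other tasks strips clathrin coats from vesicles. The summit at 15242519 lay 168 bp upstream of the first start site, in an interval of 623 bp. Its signal score was 986 in the pooled list, 588.9 in replicate 4 and 408.2 in replicate 6. Relative signal was 4.65 in replicate 4 and 4.53 in replicate 6, a mean of 4.59 ± 0.0862 (SD, n = 2), and the replicate summits lay 31 bp apart.

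The summit ranked 177 in the IDR list, above 91.2% of it, and 47 among the 1475 IDR summits on the arms. By the strongest pooled summit in each gene's window Hsc70-4 ranked 210 of 13968. The pooled summits next to it in rank were near DIP1 on X, at 992.2, and near Graf on X, at 984.2. The interval stands between 2 divergent start sites 451 bp apart, and the second belongs to tefu, which encodes the ATM kinase of DNA damage and telomere protection. The summit was 283 bp from the tefu start and thus nearer to Hsc70-4. A position between divergent starts was shared by 345 of the 2006 IDR summits (17.2%). The other pooled summits near Hsc70-4 were weak, with signal scores of 38.9 in a coding exon of tefu and 19.3 in a coding exon of Amt, an ammonium transporter gene.

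Hsp83 (FBgn0001233, 3L, 3192969 to 3197059, plus strand) encodes Hsp90, which is abundant without heat and rises further with it. It was the only one of the 10 genes with more than 1 IDR summit. The first, at 3193119, lay in the 5′ UTR of the longer transcript, 150 bp downstream of the first start site and 97 bp upstream of the second. Its signal score was 195.1 in the pooled list and 143.9 in replicate 4, where relative signal was 1.14 and the rank 819. Replicate 6 had no summit there, the nearest being 1119 bp away, so no mean is given.

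The second Hsp83 summit, at 3194262, lay in the intron, 1046 bp downstream of the second start site. Its signal score was 154.7 in the pooled list, 92.6 in replicate 4 and 65.9 in replicate 6. Relative signal was 0.731714 in replicate 4 and 0.731423 in replicate 6, a mean of 0.732 ± 0.000206 (SD, n = 2), so the weaker of the Hsp83 summits was the one that both replicates held. The pooled ranks of the summits were 1051 and 1445, and the called intervals were 224 and 176 bp, against a median of 319 bp for IDR summits on the arms. Another pooled summit, 164 bp from the start of CG14966, had a signal score of 42.6 and was matched in replicate 4 only. The pooled summits next in rank to the first were near tzn, at 195.2, and nearest to jing, at 195.02.

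Hsp27 (FBgn0001226, 3L, 9384063 to 9385694, plus strand) encodes a small heat shock protein and had the strongest summit among the inducible genes. The summit at 9383881 lay 182 bp upstream of its start site in an interval of 248 bp, with a signal score of 245.4 in the pooled list, 119.7 in replicate 4 and 126.1 in replicate 6. Relative signal was 0.945 in replicate 4 and 1.40 in replicate 6, a mean of 1.17 ± 0.321 (SD, n = 2). The ratio of replicate 6 to replicate 4 was 1.48, above the upper quartile of the matched IDR summits. The pooled rank was 784, or 499 among the arms, and its neighbours in rank were nearest to CG33217, at 245.419, and lncRNA:CR45737, at 245.277.

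Hsp23 (FBgn0001224, 3L, 9381882 to 9382765, plus strand), also a small heat shock protein gene, had this summit in its window because the summit lies 1116 bp past the end of the gene. Its own promoter showed 2 weak pooled summits. The summit at 9381671, 211 bp upstream, had a signal score of 26.6 and a match in replicate 4 only, at 25.2. The summit at 9381930, in the 5′ UTR, had a signal score of 19.7 and no match in either replicate, and both had a q-value above 0.05.

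Hsc70-5 (FBgn0001220, 2R, 14252598 to 14256192, minus strand) encodes the mitochondrial Hsp70, called mortalin in mammals, and its IDR summit was close to the lower end of the list. The summit at 14256380, 188 bp upstream of the first start site, had a signal score of 125.2 and a rank of 1912 of 2006, where the lowest IDR score was 120.9. Replicate 4 had 2 summits at the promoter, with signal scores of 64.5 at 14256392 and 65.0 at 14256150, the latter 42 bp inside the 5′ UTR. Replicate 6 had 1, at 14256302, with a signal score of 65.8.

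Relative signal of the matched Hsc70-5 summits was 0.509 in replicate 4 and 0.730 in replicate 6, a mean of 0.620 ± 0.156 (SD, n = 2). The replicate summits ranked 2754 and 1508, so the replicate 4 summit was below the 2006 strongest of its list. The summit was 113 bp from the start of CG8531, which is divergent from Hsc70-5 at 301 bp, and nearer to that gene than to Hsc70-5. The neighbours in rank were near Sec23, at 125.169, and Fdh, at 125.142.

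Hsp26 (FBgn0001225, 3L, 9376418 to 9377427, minus strand), a small heat shock protein gene, was the first of the 10 below the IDR threshold. Its summit at 9377560, 133 bp upstream of the start site, had a signal score of 69.0 in the pooled list, where it ranked 4436, and of 45.9 in replicate 4 and 20.5 in replicate 6. Relative signal was 0.362 in replicate 4 and 0.227 in replicate 6, a mean of 0.295 ± 0.0958 (SD, n = 2). Both replicates placed it within 14 bp of the pooled summit, upstream of the run of CTCTC shown above.

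Hsp22 (FBgn0001223, 3L, 9372931 to 9374964, plus strand), whose small heat shock protein works in mitochondria, had 1 pooled summit at 9373486. It lay in the 5′ UTR of its longer transcript, which overlaps CG4456 (Hsp67Bb), with a signal score of 40.4 and a rank of 10877. Replicate 4 had a signal score of 24.9 at 9 bp from it, and replicate 6 one of 20.3 at 135 bp, outside the matching distance. Summits of the 2 genes cannot be told apart there.

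Hsp68 (FBgn0001230, 3R, 24055080 to 24057310, minus strand), an inducible gene of the Hsp70 family, had no pooled summit in its window, and the nearest lay 3945 bp past the end of the gene with a signal score of 21.4. Each replicate's own list nevertheless had one just inside the gene, 44 bp past the start site in replicate 4 and 63 bp past it in replicate 6, so 19 bp apart. Their signal scores were 28.1 and 13.4, with ranks of 12037 and 16687, and neither had a q-value under 0.05. Such a case was uncommon: of 10368 replicate 4 summits with a replicate 6 summit within 100 bp, 133 (1.28%) had no pooled summit within 500 bp. The lowest score in the pooled list was 17.5. Replicate 6 also had a summit 882 bp upstream, 95 bp from the start of the cohesin gene SMC1, with a signal score of 23.8.

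Hsc70-3 (FBgn0001218, X, 11801696 to 11807117, minus strand) encodes BiP, the Hsp70 of the endoplasmic reticulum, and had 4 pooled summits, none matched in both replicates. The strongest, with a signal score of 55.6 and a rank of 6414, lay 1457 bp past the end of the gene, in the 3′ UTR of CkIIbeta, and was matched in replicate 4 at 36.2. Inside the gene the intron held summits of 48.8 and 37.7, which lay 188 and 54 bp upstream of internal start sites. The first was matched in replicate 4, at 42.2, and the second in replicate 6, at 26.9. A summit 465 bp upstream of the first start had a score of 31.4 and was matched in replicate 4 only, at 22.9.

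Hsp60A (FBgn0015245, X, 11108482 to 11112308, plus strand) encodes the mitochondrial chaperonin. Its single pooled summit at 11109058 lay in an intron, 576 bp downstream of the first start site, with a signal score of 38.4 and a rank of 11757. Replicate 4 had a signal score of 25.4 there, and the nearest replicate 6 summit was 921 bp away. Hsc70-3 and Hsp60A were thus constitutive genes with weak summits that a single replicate matched.

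**Figure D3:**
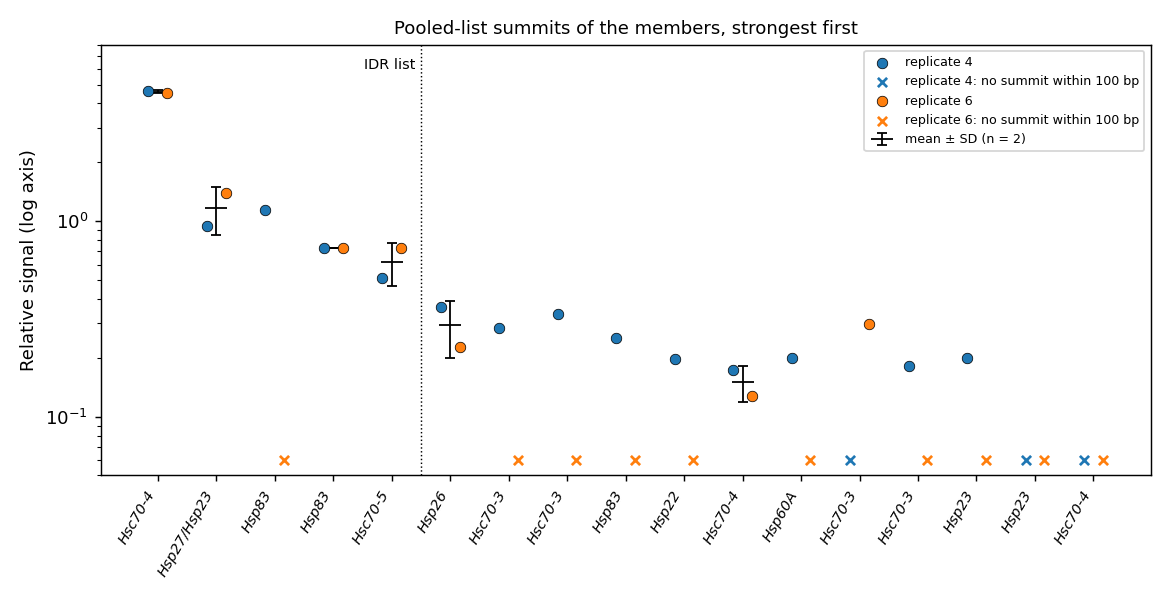
Relative signal (log axis) of the 17 distinct pooled summits in order of pooled score, per replicate, with the mean and SD where both replicates matched (n = 2); crosses mark a replicate with no summit within 100 bp. Hsc70-4 at 4.59 stands above the rest, the other IDR summits lie between 0.509 and 1.40, and right of the dotted line most summits have a cross for one replicate.

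In order of mean relative signal, the summits matched in both replicates were those of Hsc70-4 at 4.59, Hsp27 at 1.17, the Hsp83 intron at 0.732, Hsc70-5 at 0.620 and Hsp26 at 0.295, followed by the weak summit in tefu at 0.150. The replicate values of Hsc70-4 did not overlap with those of any other. The Hsp83 intron and Hsc70-5 differed by less than 1 SD of Hsc70-5. Values of Hsp26 lay below both values of Hsc70-5.

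Taking the strongest pooled summit of each gene, the median relative signal was 0.610 for the 5 constitutive genes and 0.295 for the 5 inducible ones. In these medians a replicate with no matched summit, and Hsp68, were given the lowest relative signal of the list, which was 0.110 in replicate 4 and 0.0843 in replicate 6. The constitutive median was the value of Hsp83, a mean of 1.14 in replicate 4 and this fill-in of 0.0843 in replicate 6. It thus rests on a measured value from replicate 4 only. The inducible median was that of Hsp26, whose summit both replicates matched. The difference was 0.316 (constitutive minus inducible). From replicate 4 alone it was 0.147, and from replicate 6 alone -0.143. In replicate 6 Hsc70-3, Hsp83 and Hsp60A all took the fill-in, so the constitutive median was the fill-in itself. Hsp22 and Hsp68 took it among the inducible genes. Replicate 6 did hold the Hsp83 intron summit, at 0.731. The difference was 0.468 with summits within 500 bp of a start site only and 0.436 with all summits of a window summed.

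With Hsp68, the gene lacking a summit, left out the difference was -0.123. There the Hsp27 summit enters for both Hsp27 and Hsp23, as in every difference above except that within 500 bp of a start site. With that summit counted once and Hsp68 kept, the difference was 0.393, with 0.230 in replicate 4 and -0.0713 in replicate 6. With it counted once and Hsp68 left out, the difference was 0.316, with 0.147 in replicate 4 and -0.143 in replicate 6. Both rules were chosen after seeing the data. With the strongest summit of each replicate's own list in each window, also chosen after seeing the data, no fill-in is needed. The difference was then 0.327, with 0.151 in replicate 4 and 0.466 in replicate 6. These summits need not be the same site in both replicates, as at Hsp83, and Hsp23 again enters through the Hsp27 summit. In replicate 6 the inducible median was the Hsp68 window's summit 95 bp from the start of SMC1, at 0.264. The classes overlapped in the values behind the medians of 0.610 and 0.295: Hsp27 lay above 4 of the 5 constitutive genes, and Hsc70-3 and Hsp60A lay below Hsp26. These are medians of 5 genes and a description only.

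The small heat shock genes Hsp22, Hsp26, Hsp23 and Hsp27 sit in 1 cluster of 8 genes that spans 14184 bp of 3L, from 9371511 to 9385694. Hsp67Bc, CG4456, CG4461 and Hsp67Ba are the other genes in it. Replicate 6 had 7 summits here, counting 1 just outside this span, in a coding exon of Fdx1. The cluster held 5 pooled summits, 5 of replicate 4, and a single IDR summit, the one in front of Hsp27. Its pooled score of 245.4 was 3.55 times that of the next summit, at Hsp26. The remaining pooled summits of the cluster scored between 19.7 and 40.4.

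**Figure D4:**
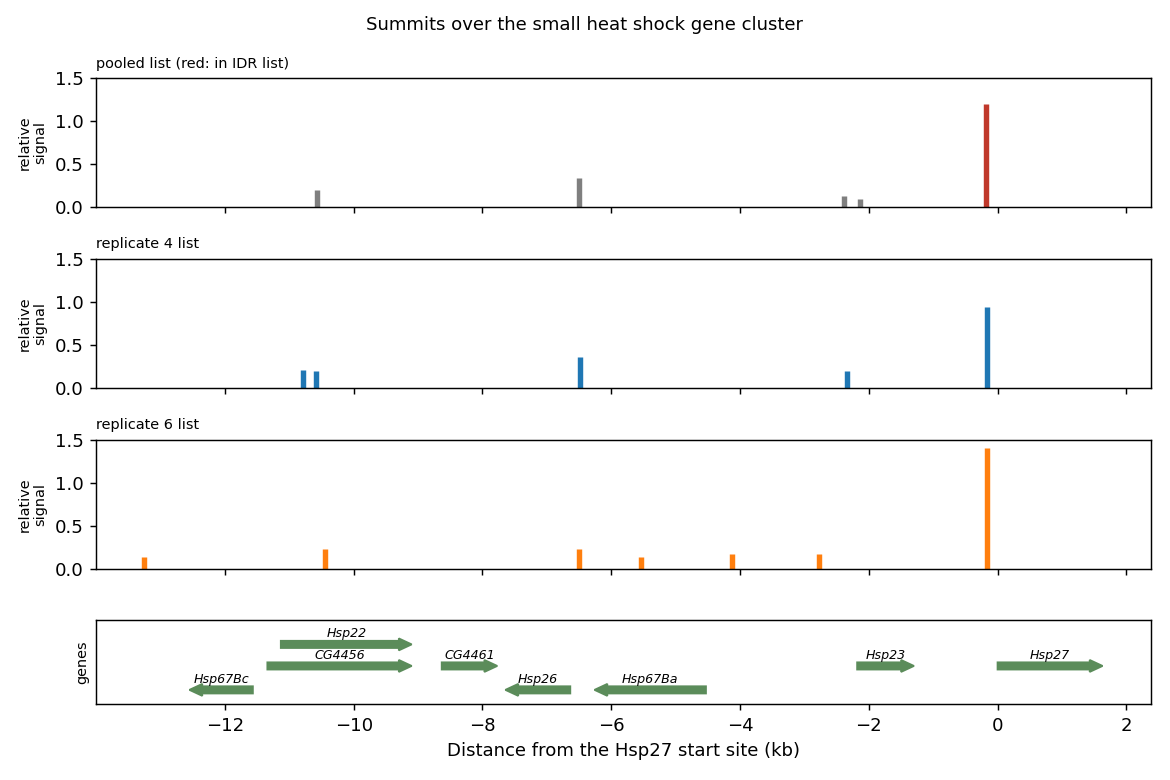
Relative signal of each summit (vertical axis, from 0) over the cluster of small heat shock genes, by distance from the Hsp27 start site (kb), in the pooled list and in each replicate; arrows show the genes and their direction. The bar 182 bp upstream of Hsp27 is the highest in all panels, at 0.945 in replicate 4 and 1.40 in replicate 6, and no other bar passes 0.362.

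The summits in front of Hsc70-4, Hsp27 and Hsc70-5 lay at 168, 182 and 188 bp from the gene's first start. This distance lies on the upstream side that most promoter summits share. Of 998 IDR summits within 500 bp of a protein-coding start site, 888 (89.0%) were upstream, with a median position of -121 bp and quartiles of -207 and -69 bp. A position 150 to 200 bp upstream was held by 124 of them (12.4%). Measured to these first starts, the 3 summits therefore lay within the range of promoter summits and on its outer side. The Hsc70-5 summit was nearer to the start of CG8531, at 113 bp. The first Hsp83 summit, 97 bp upstream of that gene's second start, was closer to a start than the median.

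Motif matches were counted around the first start site of each gene, from 250 bases before to 50 after it, on both strands. Later start sites were not scanned. The first start site of Hsp22, at 9372931, is also a start of CG4456, so its matches cannot be assigned to Hsp22 alone. Its second start is at 9373997. The Hsp83 site shown above lies 168 to 197 bp downstream of the first start, outside the stretch counted. A heat shock element of 3 adjoining alternating NGAAN and NTTCN units was in 0.422% of all promoters and at 1 of the 10 genes, Hsp68. Allowing 1 mismatch, a rule chosen after seeing the data, it was in 8.27% of promoters and at 4 of the 10, namely Hsp68, Hsp26, Hsp23 and Hsc70-3. GAGAG was in 29.7% of promoters and at Hsp26, Hsc70-3, Hsp23 and Hsp22, with 6 partly overlapping matches at Hsp26. None of these 4 genes had an IDR summit at its own promoter. By the 500 bp start-site rule only 8.84% of protein-coding genes had one. The share among promoters with GAGAG was not counted, so nothing is read from its absence at 4 genes. The window of the Hsp27 summit held 1 GAGAG match, which lies outside the stretch counted here.

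TATAAA was in 45.8% of promoters and at 9 of the 10, with Hsc70-3 as the exception. ATCGAT, the core of the DNA replication element, was in 23.3% and at Hsp83, Hsc70-3 and Hsp60A, all constitutive. CAGGTA, a site of the early embryonic activator Zelda, was in 6.24% and at none of the 10. These are letter matches and say nothing on whether a factor was bound.

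Within 100 bases of the 2006 IDR summits the heat shock element occurred in 2 windows (0.0997%), and with 1 mismatch in 99 (4.94%). The window of the first Hsp83 summit was one of the 99, with 4 overlapping matches that make up the site shown above, and it had 47.8% GC against a median of 33.8% for IDR windows. The Hsp27 window had 1 GAGAG match and 37.3% GC, beside 18.8% of IDR windows with GAGAG. The Hsc70-5 window, at 32.3% GC, and the first Hsp83 window each held 1 TATAAA match, beside 39.1% of IDR windows with TATAAA. The Hsc70-4 window, at 39.3% GC, and the Hsp83 intron window, at 30.8%, held none of the motifs searched.

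Among 50 other genes of the chaperone system 8 had an IDR summit in their window and 29 had a pooled one, shares near those of all protein-coding genes, 15.4% and 52.3%. The counts per list that follow are small and are read as description. None of the 6 inducible Hsp70 genes had an IDR or pooled summit, but these copies are near identical, so the placement of reads on them is uncertain. None of 3 other Hsc70 and Hsp110 genes, 8 other small heat shock genes and 4 other Hsp60 and Hsp10 genes had an IDR summit. Of the CCT chaperonin genes 1 of 8 had one, CCT3, with a relative signal of 1.07 ± 0.251 (SD, n = 2), 204 bp from the start of its neighbour CG10324.

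J proteins, which deliver clients to Hsp70, had 3 of 8. The summit of mrj, 0.871 ± 0.0434 (SD, n = 2), and that of DnaJ-H, 0.676 ± 0.396, lay in introns, at -321 and -259 bp from the nearest start site of the gene, where minus is upstream. That of l(2)tid (CG5504), 1.39 ± 0.425, was 95 bp from the start of the glycosylation gene Alg3. Trap1, the mitochondrial Hsp90, had a summit of 0.941 ± 0.0892 that lay 163 bp from the start of Vha16-1. STUB1, which tags chaperone clients with ubiquitin, was the only co-chaperone gene of 8 with an IDR summit, and the strongest, at 1.55 ± 0.392, was 92 bp from the start of Nse4. Thus several of these counts rest on summits closer to the start of another gene.

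Of the regulators, Hsf, the gene of heat shock factor itself, had no IDR summit and 2 weak pooled ones, the stronger with a signal score of 22.5 in a coding exon of Dlip3. Trl, the gene of the GAGA factor, had an intron summit of 2.50 ± 0.166 (SD, n = 2) at rank 306. The heat shock RNA gene lncRNA:Hsromega had a summit 194 bp downstream of a start site, with a relative signal of 0.803 in replicate 4 and 0.845 in replicate 6. Among these 50 other genes of the chaperone system, no IDR summit had a relative signal as high as that of Hsc70-4.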

How the data were processed

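Su(var)2-HP2-GFP ChIP-seq peak lists of 2 replicates, their pool and an IDR list were used. Per the labels, chromatin was sonicated to 200 to 800 bp and the build is dm6. The listing that the authors deposited beside the files gives a shared control alignment for the calling of each list. Which aligner and which peak caller made them is not given in the sources used here; control reads were not used here. The deposited lists hold a signal score and −log10 of a q-value per peak, both the authors'. The highest −log10 q-value was 3.98 in the pooled list, and all IDR peaks had it. Most intervals have a fixed width (430 bp for 90.8% of the pooled list).

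Summits were assigned to genes within 2 kb with the Ensembl release 115 annotation, and sequences were read from the RefSeq Release 6 assembly (Python 3.11.15, pandas 2.3.3, numpy 2.4.6). Replicate summits were matched within 100 bp. The assignment, matching and motif counts were tested on simulated data. The genes and lists were chosen with earlier results of these data known, so no test was made. Genes named in the text are the 10 genes, the genes nearest to their summits, the genes of 9 chaperone lists with an IDR summit, those next in rank, Hsf and lncRNA:Hsromega.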

Additional observations from a re-analysis of the deposited data

How the results depend on the processing

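Of 75 alternatives 55 left the value about where it was, 18 moved it and 2 turned its direction. The first label is loose. It covers a count that went from 10 to 7 genes. For the median difference it covers any change under 0.205 that kept the sign. This is the SD of the 2 single-replicate differences, which had opposite signs. Genes with an IDR summit numbered 5 of 10; with summits inside gene bodies only they were 1, with the stronger part of the IDR list, above its median, 3, with pooled summits at a q-value under 0.05 9, and with each summit given to the nearest start site, chosen after seeing the data, 3. From single replicates they were 4 to 5. The 3 constitutive genes became 1 by gene bodies, 1 by that stronger part and 5 by the q-value. The 2 inducible genes became 0 by gene bodies, 1 within 500 bp of a start site, 1 with a flank of 1 kb, 4 by the q-value and 1 by the nearest start. By gene bodies, genes with a pooled summit fell from 9 to 5, and those with a summit in both replicate lists from 10 to 5. The share of all genes was not counted by gene bodies for these lists. Nor was it counted for the stronger part of the IDR list or the flank of 1 kb, so these counts are description only. The median difference of 0.316 (constitutive minus inducible) was -0.143 without replicate 4 and 0.147 without replicate 6; over all alternatives on this scale it ran from -0.143 to 0.468. It was -0.123 with genes lacking a summit left out. When the summit shared by Hsp27 and Hsp23 also counted once it was 0.316, but still -0.143 from replicate 6 alone. With that summit counted once and no gene left out it was 0.393, and -0.0713 from replicate 6 alone. With no fill-in, from each replicate's own strongest summits, which can be different sites, it was 0.327. The rules that count the shared summit once or use each replicate's own summits were chosen after seeing the data. The relative signal of Hsc70-5 became 0.297 when matches had to lie within 50 bp, as 1 replicate then had none.

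No paired analysis was possible because both samples belong to a single group. Depth is unknown, and with 2 replicates an SD is itself imprecise.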
